A study of Mus musculus with 8 samples.

Results

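The 10 mouse genes that encode the pore-forming alpha1 subunits of voltage-gated calcium channels, Cacna1a to Cacna1i and Cacna1s, were followed in dorsal root ganglia (DRG) of E18.5 embryos. They were chosen as the whole Cacna1 gene family, by symbol and not by their values, although earlier results of these data were known. They make up 10 of the 55414 gene IDs that were counted, and all 10 were among the 17721 genes that passed the filter on low counts. The study asked what happens to somatosensory neurons when Dach1 is expressed in all of them late in development. Most of these neurons otherwise lose this transcription factor as they mature. According to the study, Dach1 in the forced-expression embryos was at first restricted properly, and broad expression returned later. Bulk RNA-seq was performed on DRG of 4 AD1 OE embryo samples, genotype AdvillinCre/+;Rosa26Dach1/+, and of 4 Control samples, genotype Advillin+/+;Rosa26Dach1/+. Both groups therefore carried the same heterozygous Rosa26 allele, in which a floxed stop cassette precedes Dach1 and an EGFP reporter, and only AD1 OE also carried the heterozygous Cre. The Cre is driven from the Advillin locus, which is active in postmitotic somatosensory neurons, and the Rosa26Dach1 mice were of a mixed C57Bl/6J and CD1 background. The tissue was whole ganglia with neurons and glia.

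Voltage-gated calcium channels open when the membrane is depolarised and let calcium into the cell, and the alpha1 subunit forms the pore and senses the voltage. High-voltage-activated channels open at strong depolarisation. They comprise the L type (Cacna1c, Cacna1d, Cacna1f and Cacna1s), which couples electrical activity to contraction and gene expression, and the P/Q type (Cacna1a), N type (Cacna1b) and R type (Cacna1e), which serve transmitter release. Low-voltage-activated T type channels (Cacna1g, Cacna1h and Cacna1i) open near the resting potential and set how easily a neuron fires. In sensory neurons the N type is the best known presynaptic channel and the target of an analgesic cone snail toxin, and Cacna1h carries most T type current, with high levels in D-hair mechanoreceptors.

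The split between both classes can be read in the reference transcripts of the 10 genes, at the selectivity filter, where 4 repeats of the channel each lend an acidic residue to the ring that binds calcium. The stretch of 21 bases around the filter of repeat III is shown for each gene because it separates the T type genes from all others. Capitals mark the codon of the acidic residue, and coordinates are on GRCm38 with the sequence of the coding strand, from GENCODE M21. The T type genes hold a codon for aspartate.
Cacna1h (chr17:25383499-25383519, minus strand, exon 24): tcatccaagGATggctgggta
Cacna1g (chr11:94426462-94426482, minus strand, exon 24): gcctccaagGATggctgggtt
Cacna1i (chr15:80376798-80376818, plus strand, exon 24): gcctccaagGATggctgggtg
The 7 high-voltage-activated genes hold a codon for glutamate at the same place.
Cacna1b (chr2:24651083-24651103, minus strand, exon 28): tccacgggaGAGgggtggccc
Cacna1a (chr8:84581329-84581349, plus strand, exon 27): tccacaggaGAGggctggcca
Cacna1e (chr1:154444874-154444894, minus strand, exon 29): tctacagggGAAggatggcct
Cacna1c (chr6:118656115-118656135, minus strand, exon 27): tccaccttcGAAgggtggcca
Cacna1d (chr14:30100699-30100719, minus strand, exon 27): tcaacttttGAGggctggccc
Cacna1s (chr1:136097489-136097509, plus strand, exon 24): tccaccttcGAGggttggcct
Cacna1f (chrX:7623854-7623874, plus strand, exon 27): tctacctttGAAggctggcct

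Exon numbers count along the protein-coding transcript with the longest open reading frame, and each stretch lies within 1 coding exon. In repeat IV the 3 T type genes again code for aspartate and the other 7 for glutamate, while repeats I and II code for glutamate in all 10 genes. Bulk counts are summed over the whole gene and do not show which splice form of a channel is made.

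The libraries held 22339059 to 44025625 counts each, with no separation of AD1 OE from Control (p = 0.8286 by an exact two-sided permutation test). At this depth 3 counts correspond to 0.0678 to 0.135 CPM, the unit used here, in which the count of a gene is scaled to its library's total. Dach1 was at 91.5 to 102 CPM in AD1 OE against 30.2 to 33.7 CPM in Control, and Avil, the gene that holds the Cre, was at 449.6 to 478 CPM against 840.4 to 919 CPM. Summed CPM of 8 pan-neuronal markers was 6283 to 6633 in AD1 OE and 6436 to 6780 in Control, and none of the 8 was called. Transcripts of the Y chromosome were found in AD1 OE replicates 1, 2 and 4 and in Control replicate 4, and Xist in the other libraries, so the sexes were not balanced between the groups. Nothing in the labels says whether libraries of a group came from separate litters, so p-values measure the spread between these libraries. In bulk tissue, a change in the number of cells of a type and a change in RNA per cell cannot be told apart.

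Of the 10 pore subunit genes, Cacna1h alone passed the thresholds for a difference between AD1 OE and Control, and it rose. None of the 10 fell. A gene was called at an adjusted p below 0.005 by the edgeR quasi-likelihood test and a log2 fold change beyond 0.25 in either direction. These are the limits that the study's Results give for this comparison. Its methods also name a log2 fold change beyond 1 at an adjusted p below 0.05, which Cacna1h at 0.53 does not reach. Among all tested genes, 2.57% were called, 0.784% as higher and 1.78% as lower in AD1 OE. A count of 1 among 10 genes is above that share, but it is a single gene. The median log2 fold change of the 10 genes was 0.04, beside 0.0018 over all tested genes, and 6 of the 10 lay above 0. At an adjusted p below 0.05, whatever the fold change, 2 of the 10 passed, Cacna1h and Cacna1c, where 6.55% of all tested genes did. The same pair were the members whose AD1 OE and Control libraries did not overlap, which held for 13% of all tested genes.

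**Figure D1:**
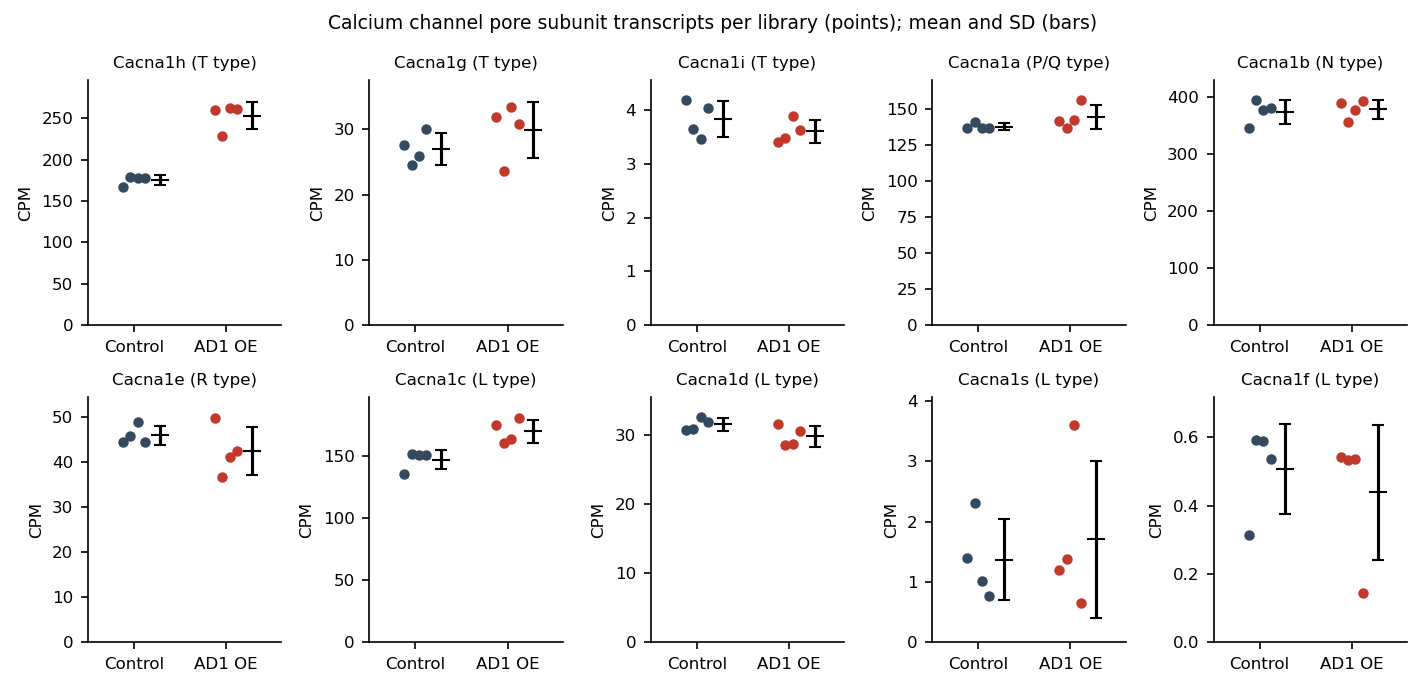
CPM of the 10 pore subunit genes in the 4 Control (dark) and 4 AD1 OE (red) libraries, with the mean and SD beside the points and every vertical axis starting at 0. Cacna1h and Cacna1c are the panels in which the groups do not overlap.

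Cacna1h, the T type pore of D-hair mechanoreceptors and of part of the nociceptors, was at 259.9, 228.7, 262.2 and 261.1 CPM in AD1 OE replicates 1 to 4. In Control replicates 1 to 4 it was at 166.7, 179.2, 178.4 and 178.2 CPM. Every AD1 OE library thus lay above every Control library, with the lowest AD1 OE library well above the highest Control library. The means were 253 ± 16.2 and 176 ± 5.98 CPM (SD, n = 4 each), a log2 fold change of 0.53 (SE 0.05; edgeR quasi-likelihood test, adjusted p = 3.59e-05), or 1.44-fold with a 95% interval of 1.34 to 1.55. Of the 139 genes called higher, 56 had a larger log2 fold change than Cacna1h, and 9 had a higher mean CPM in Control.

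The rise of Cacna1h was also present among libraries of the same sex. The log2 ratio of the mean CPM was 0.59 between the AD1 OE library and the 3 Control libraries with Xist, and 0.49 between the 3 AD1 OE libraries and the Control library with Y transcripts. The lowest library of each group for Cacna1h was also the one with the fewest counts, AD1 OE replicate 2 with 22340258 and Control replicate 1 with 22339059. These libraries were lowest in their groups for 7 and 6 of the 10 genes. Taken against Cacna1b, the most abundant member, within each library, the CPM of Cacna1h was 0.642 to 0.696 times that of Cacna1b in AD1 OE and 0.453 to 0.483 times in Control, and the ranges stayed apart. The call held when each library was left out in turn, with adjusted p of at most 2.55e-04 by edgeR.

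Marker lists of the neurons in which T type channels are known were examined beside Cacna1h. Of the 4 markers of A-delta low-threshold mechanoreceptors (LTMR), which include the D-hair cells, none was called higher and Cntnap5a was called lower. Their summed CPM was 248 to 266 in AD1 OE and 250.1 to 268 in Control. Of these 4, 2 had a log2 fold change above 0, and the groups did not overlap in 3, against 13% of all tested genes. Of the 5 C-LTMR markers, Th was called higher and Tafa4 and Gfra2 were called lower, and the groups did not overlap in 4. The sums were 244 to 268 CPM in AD1 OE against 255 to 284 CPM in Control. Markers of nociceptors moved in part. Called lower in AD1 OE were 3 of 5 peptidergic genes (Calca, Tac1 and Adcyap1, with sums of 1027 to 1120 against 1317 to 1357 CPM). So were 4 of 6 non-peptidergic genes (among them Mrgprd, Scn10a and Lpar3, with sums of 1898 to 2141 against 2319 to 2697 CPM). The groups did not overlap in 3 of the 5 and in all 6, against 13% of all tested genes. Beside the calls of these marker lists, 0.784% of all tested genes were called higher and 1.78% lower. Of the nociceptor markers that were not called, P2rx3 and Scn11a had higher CPM in every AD1 OE library than in any Control library, at log2 fold changes of 0.16 and 0.21 (edgeR adjusted p = 0.0642 and 0.0858), and Trpv1 was at -0.12 (edgeR adjusted p = 0.489). Of 8 A-beta LTMR and proprioceptor markers, Etv1 was called lower and the other 7 were not called. The groups did not overlap in 4 of the 8, against 13% of all tested genes, and 2 had a log2 fold change above 0. No marker of these lists was at 0 in any library. These markers are named after their values were seen, and the part of cell composition in the level of Cacna1h was not tested.

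The other T type genes did not pass the test. Cacna1g, best known from thalamus and cerebellum, was at 31.8, 23.6, 33.4 and 30.8 CPM in AD1 OE and at 27.6, 24.5, 25.9 and 29.99 CPM in Control, so that the groups overlapped. Its log2 fold change was 0.15 (SE 0.10; edgeR quasi-likelihood test, adjusted p = 0.467), with a 95% interval from -0.07 to 0.37. Between libraries of the same sex its log2 ratio was 0.36 with Xist and -0.06 with Y transcripts, which differ in sign. Cacna1i, a T type gene of the brain, was much lower at 3.41 to 3.90 CPM in AD1 OE against 3.46 to 4.18 CPM in Control, with a log2 fold change of -0.09 (SE 0.11; edgeR quasi-likelihood test, adjusted p = 0.724). The intervals of Cacna1g and Cacna1i both lie below the estimate for Cacna1h, whose own interval runs from 0.42 to 0.63.

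**Figure D2:**
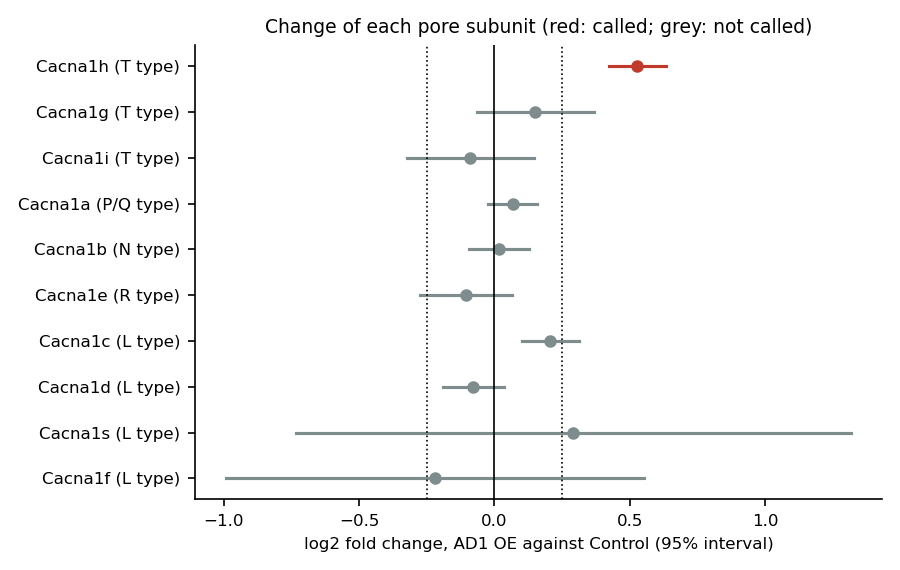
Log2 fold change of each pore subunit gene between AD1 OE and Control with its 95% interval, dotted lines at the limits of 0.25 on either side. Cacna1h at 0.53 is the called gene, and the intervals of Cacna1f and Cacna1s are far wider than those of the other genes.

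The channels of transmitter release showed no called difference. Cacna1b, the N type pore, was at 390.4, 356.1, 376.7 and 392.5 CPM in AD1 OE and at 345.2, 395.6, 377.1 and 380.1 CPM in Control. The groups shared nearly the whole range, and the log2 fold change was 0.02 (SE 0.05; edgeR quasi-likelihood test, adjusted p = 0.906) with a 95% interval from -0.09 to 0.13. Changes of the size seen for Cacna1h lie outside that interval. The sign of so small a value turned without Control replicate 1, to -0.02.

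Cacna1a, the P/Q type pore, was at 142, 137, 142 and 157 CPM in AD1 OE and at 137, 141, 137 and 137 CPM in Control. The Control libraries were nearly level and AD1 OE replicate 4 lay above all others. The log2 fold change was 0.07 (SE 0.04; edgeR quasi-likelihood test, adjusted p = 0.43), with a 95% interval from -0.02 to 0.16. Cacna1e, the R type pore, was at 49.7, 36.8, 41.1 and 42.4 CPM in AD1 OE and at 44.5, 45.8, 48.8 and 44.5 CPM in Control. The AD1 OE libraries 2, 3 and 4 lay below all Control libraries, but replicate 1 lay above them. Its log2 fold change was -0.11 (SE 0.08; edgeR quasi-likelihood test, adjusted p = 0.524), with a 95% interval from -0.28 to 0.07.

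Among the L type genes, Cacna1c, the pore of heart, smooth muscle and many neurons, came closest to a call. It was at 174.5, 160.1, 163.6 and 180.3 CPM in AD1 OE and at 135.4, 151.3, 150.6 and 150.6 CPM in Control. Each AD1 OE library lay above each Control library, although AD1 OE replicate 2 and Control replicate 2 were close. The means were 169.6 ± 9.40 and 147 ± 7.75 CPM (SD, n = 4 each), a log2 fold change of 0.21 (SE 0.05) with a 95% interval from 0.10 to 0.31. The edgeR quasi-likelihood test gave an adjusted p of 0.0229, so that the gene missed both limits. With DESeq2, which the study used, its adjusted p was 0.00302 at a log2 fold change of 0.21, and it missed the fold limit alone. The log2 ratio within each sex was 0.17 with Xist and 0.19 with Y transcripts, while with the sex score in the edgeR fit the adjusted p was 0.15. Of 6 markers of smooth muscle and pericytes, a known source of Cacna1c, none was called, and their sums were 189 to 204 CPM in AD1 OE against 189 to 199 CPM in Control. The part of cell composition in the level of Cacna1c was not tested.

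Cacna1d, the L type pore that opens at less depolarised potentials, was at 28.4 to 31.5 CPM in AD1 OE against 30.6 to 32.5 CPM in Control. Its log2 fold change was -0.08 (SE 0.05; edgeR quasi-likelihood test, adjusted p = 0.471), with a 95% interval from -0.19 to 0.03. Cacna1f, the L type pore of photoreceptors, was scarcely detected. Its counts were 24, 12, 14 and 4 in AD1 OE and 7, 19, 15 and 19 in Control, each above the floor of 3 counts. Such counts leave a 95% interval of the log2 fold change from -0.99 to 0.55, and a change within it was not detectable at this depth (edgeR quasi-likelihood test, adjusted p = 0.803). Without AD1 OE replicate 4, the library with 4 counts, the log2 fold change went from -0.22 to 0.06.

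Cacna1s, the L type pore that couples excitation to contraction in skeletal muscle, varied more between libraries of a group than any difference between the groups. It was at 1.198, 1.381, 3.596 and 0.648 CPM in AD1 OE and at 1.395, 2.305, 1.022 and 0.763 CPM in Control. Its log2 fold change was 0.29 (SE 0.47; edgeR quasi-likelihood test, adjusted p = 0.804), and without AD1 OE replicate 3 it was -0.34. With the sex score in the edgeR fit it was 0.99 (adjusted p = 0.154), and the log2 ratio within each sex was 1.19 with Xist and 0.50 with Y transcripts. The summed CPM of 9 skeletal muscle markers varied with it, at 200.2, 247, 748 and 144 CPM in AD1 OE and at 448, 429, 245 and 168 CPM in Control. AD1 OE replicate 3 was highest and AD1 OE replicate 4 lowest on both measures. All 9 muscle markers were detected in each of these 2 libraries, from 2.10 CPM (Myog) to 173 CPM (Acta1) in replicate 3 and from 0.144 CPM (Myog) to 37.6 CPM (Acta1) in replicate 4. None of the 9 was called between the groups, and the part of muscle in the level of Cacna1s was not tested.

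**Figure D3:**
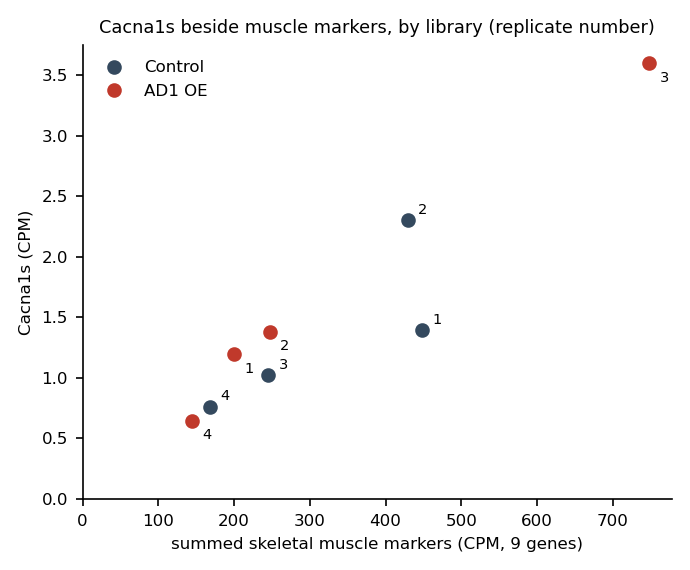
Cacna1s CPM against the summed CPM of 9 skeletal muscle markers in each library, with the replicate number beside each point. AD1 OE replicate 3 stands apart at 748 CPM of muscle markers and 3.60 CPM of Cacna1s, and the other 7 libraries of both groups are intermingled.

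To compare the genes with each other, CPM was divided by the length of all annotated exons of the gene in kilobases. Cacna1b had the highest level per length, 38.1 ± 1.69 CPM per kb in AD1 OE and 37.7 ± 2.13 CPM per kb in Control (SD, n = 4 each, as for the levels that follow). Cacna1h followed at 25.9 ± 1.66 and 18.0 ± 0.612 CPM per kb. Cacna1a came next at 12.6 ± 0.743 and 12.1 ± 0.192 CPM per kb. The order was the same in both groups, and the ranges of these 3 genes did not meet in either. Below them lay Cacna1c at 8.004 ± 0.444 and 6.94 ± 0.366 CPM per kb, and then Cacna1g at 2.95 ± 0.428 and 2.66 ± 0.235 CPM per kb with Cacna1d at 2.36 ± 0.119 and 2.49 ± 0.0719 CPM per kb. Cacna1g and Cacna1d overlapped in both groups and could not be ordered. Cacna1e was at 1.68 ± 0.213 and 1.82 ± 0.0810 CPM per kb. Cacna1i, at 0.366 ± 0.0221 and 0.389 ± 0.0342 CPM per kb, could not be ordered against Cacna1s, at 0.260 ± 0.198 and 0.209 ± 0.103 CPM per kb. Cacna1f was lowest, at 0.0483 ± 0.0217 and 0.0559 ± 0.0144 CPM per kb. With the longest transcript as the length, Cacna1c was at 12.9 and 11.2 CPM per kb and Cacna1e at 2.85 and 3.08 CPM per kb, and Cacna1d, Cacna1g and Cacna1e could not be ordered. The DRG samples at E18.5 thus held transcripts of all 10 pores, spread over a wide range, with the N type gene and Cacna1h at the top. Cacna1f rested on few counts, and the part of muscle in the level of Cacna1s was not tested.

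Grouped by channel type, the make-up of the family was shifted toward the T type in AD1 OE, through Cacna1h. Shares of a sum move together, so that a higher share of 1 type leaves less for the others. T type genes held 31.8, 30.6, 32.8 and 31.4% of the summed level per length in AD1 OE and 26.0, 24.8, 25.5 and 25.9% in Control, with no overlap. Cacna1h by itself held 28.05 ± 0.594% and 21.9 ± 0.204% (SD, n = 4 each). Cacna1g held 3.19 ± 0.344% in AD1 OE and 3.24 ± 0.343% in Control, with overlapping groups. Cacna1i held 0.397 ± 0.0270% and 0.473 ± 0.0566%, also with overlapping groups. The N type share was 41.3 ± 0.524% in AD1 OE and 45.7 ± 0.862% in Control although the CPM of Cacna1b was nearly level. The P/Q type held 13.7 ± 0.546% and 14.7 ± 0.496%, and the R type 1.82 ± 0.173% and 2.21 ± 0.106%. The L type held 11.6 ± 0.177% and 11.8 ± 0.123%, with overlapping groups. These shares are a description and were not tested.

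**Figure D4:**
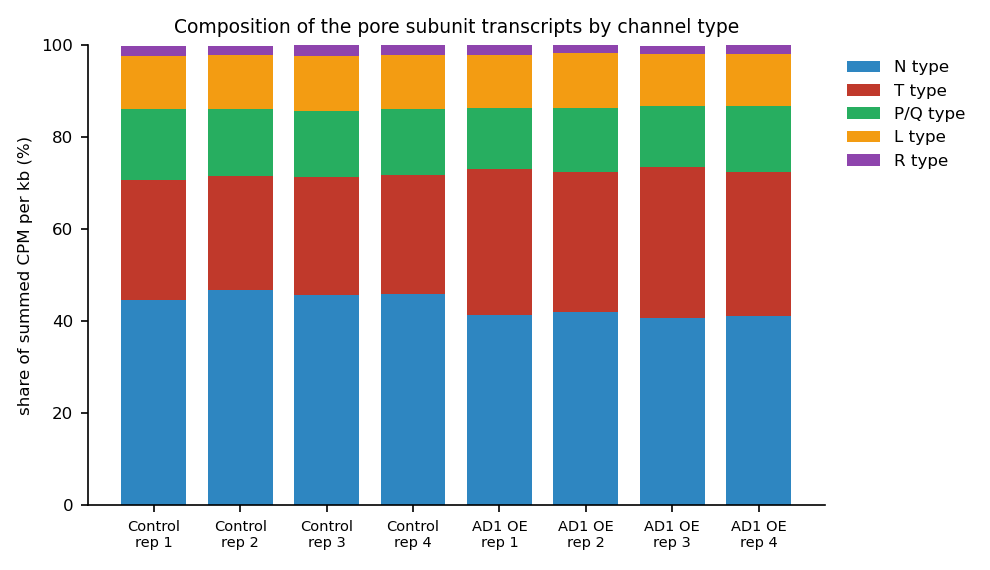
Share of the summed CPM per kb of the 10 pore subunit genes held by each channel type, 1 bar per library. T type (red) takes 30.6 to 32.8% in AD1 OE and 24.8 to 26.0% in Control, and the N type (blue) takes correspondingly less.

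Summed over the 10 genes, CPM was 1054 ± 54.9 in AD1 OE and 945 ± 35.9 in Control (SD, n = 4 each), and the groups came close at 975.9 CPM for the lowest AD1 OE library and 974.8 CPM for the highest Control library. Of the difference of 109 CPM between the means, Cacna1h made up 77.4 CPM and Cacna1c 22.7 CPM. Without Cacna1h the sums were 801 ± 40.2 and 769 ± 30.0 CPM.

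Pores work with partner proteins, and 35 partner genes were examined beside them. They comprised 4 alpha2delta subunits, which bring the channel to the membrane and bind gabapentin in some members, 4 beta subunits, 8 gamma subunits, 14 regulators and 5 calcium-activated potassium channels. Of these, 34 were tested, as Cacna2d4 did not pass the filter on low counts. None was called higher, and Cacng2 and Cacng5 were called lower, where 0.784% and 1.78% of all tested genes were called higher and lower. The 34 genes had a median log2 fold change of -0.11, beside 0.0018 over all tested genes, and the groups did not overlap in 14 of them, against 13% of all tested genes.

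Cacng2 and Cacng5 are named for their likeness to a calcium channel subunit but are known mainly as auxiliary subunits of AMPA-type glutamate receptors. Cacng2 was at 1.94, 1.87, 2.64 and 2.01 CPM in AD1 OE and at 6.75, 4.11, 3.97 and 4.97 CPM in Control, with no overlap. The log2 fold change was -1.22 (SE 0.18; edgeR quasi-likelihood test, adjusted p = 0.00149). Cacng5 was at 25.5, 24.7, 25.5 and 22.99 CPM in AD1 OE and at 30.2, 33.5, 31.0 and 35.2 CPM in Control, again with no overlap. Its log2 fold change was -0.40 (SE 0.06; edgeR quasi-likelihood test, adjusted p = 0.00181). Neither call held in every fit with a library left out. Cacng2 was no longer called without AD1 OE replicate 1, 2 or 4 or Control replicate 4, at edgeR adjusted p of 0.00541 to 0.00826, nor with the sex score or a 2-level sex term in the edgeR fit, at adjusted p of 0.00771 and 0.00553. Cacng5 was no longer called without AD1 OE replicate 1, 2 or 4 or Control replicate 2 or 4, at edgeR adjusted p of 0.00586 to 0.00897. In the fits with a library left out, the log2 fold changes stayed between -1.33 and -1.04 for Cacng2 and between -0.43 and -0.35 for Cacng5.

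**Figure D5:**
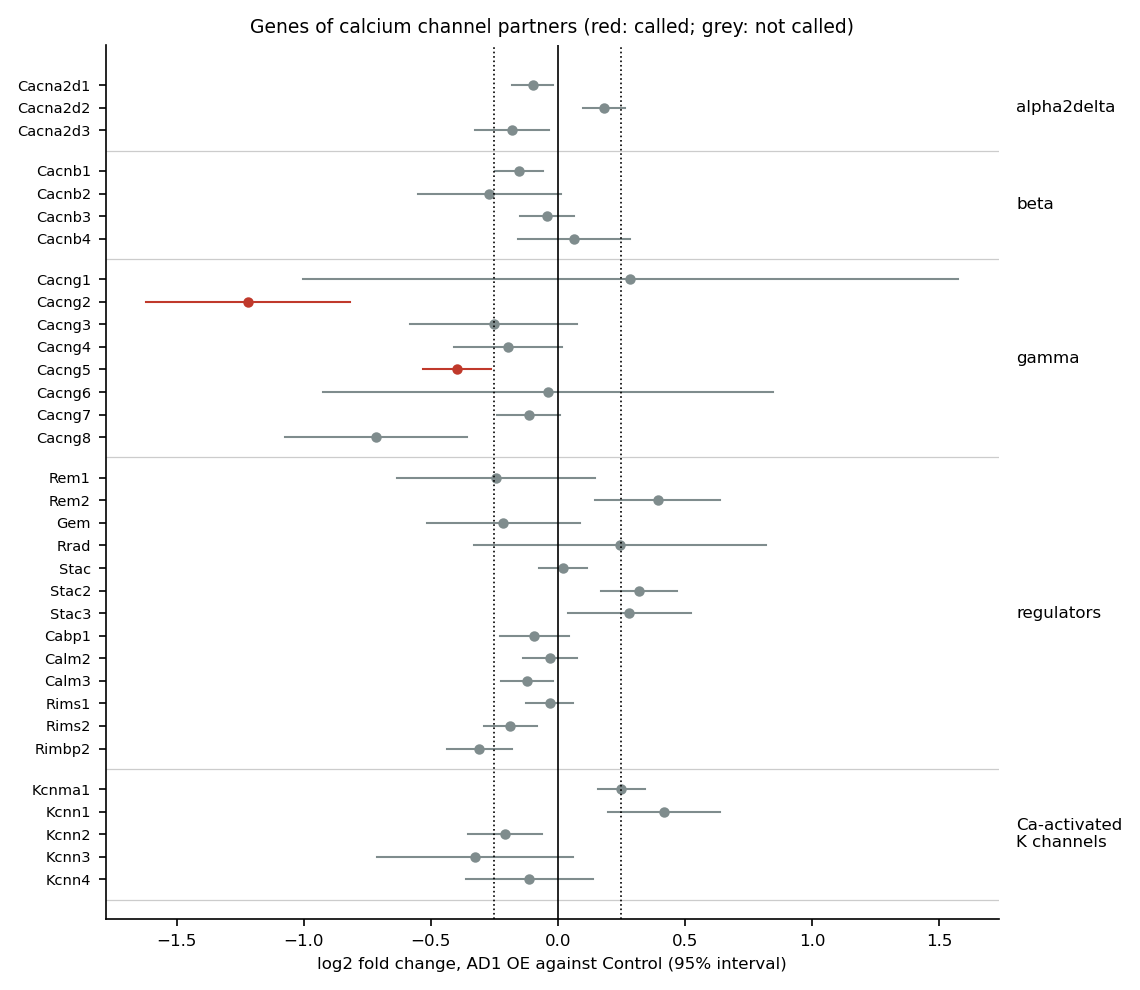
Log2 fold change of tested partner genes between AD1 OE and Control with 95% intervals, by sublist, and dotted lines at 0.25 on either side. Cacng2 and Cacng5 (red) are the called genes, and the interval of Cacng1 is the widest.

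The other sublists held no call. The most abundant alpha2delta gene by CPM, Cacna2d1, had a log2 fold change of -0.10 (edgeR quasi-likelihood test, adjusted p = 0.154), at 241 ± 7.44 CPM in AD1 OE against 258 ± 4.87 CPM in Control. Cacnb3, the leading beta subunit gene, was at 203 ± 15.02 CPM in AD1 OE against 209 ± 4.72 CPM in Control (log2 fold change -0.04, edgeR adjusted p = 0.699). Cacng7, the leading gamma gene, had a log2 fold change of -0.11 (edgeR adjusted p = 0.308).

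Kcnma1, the BK potassium channel that opens on calcium entry through nearby calcium channels, missed a call by the fold limit alone. It was at 116 ± 3.59 CPM in AD1 OE against 97.8 ± 5.02 CPM in Control (SD, n = 4 each), without overlap, at an edgeR adjusted p of 0.00314 and a log2 fold change of 0.24976. It was called in 6 of 17 alternatives, among them DESeq2 (adjusted p = 9.66e-06) and the fit without AD1 OE replicate 3 (log2 fold change 0.28), and with the sex score its edgeR adjusted p was 0.0289. At an adjusted p below 0.05, whatever the fold change, 4 of the 34 tested partner genes were higher and 5 lower in AD1 OE. Of all tested genes, 6.55% passed that limit in either direction. Chosen after their values were seen, the 4 higher genes were Cacna2d2, Stac2, Kcnma1 and Kcnn1, and the 5 lower were Cacng2, Cacng5, Cacng8, Rims2 and Rimbp2.

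Of the 10 members, 4 overlap a gene on the other strand, and the sources do not say if reads were counted by strand. For Cacna1h this is Tpsg1, at 0.0446 to 0.236 CPM in any library, and for Cacna1s it is Gm37759, at most at 0.191 CPM. Cacna1a overlaps Gm16183, at 2.56 to 3.92 CPM, and Cacna1d overlaps Chdh, at 0.574 to 1.69 CPM. Tpsg1, Gm16183 and Chdh are small beside the member they overlap. Gm37759 was highest in AD1 OE replicate 3, where Cacna1s was at 3.60 CPM. In AD1 OE replicate 4 it was at 0.108 CPM, where Cacna1s was at 0.648 CPM. Reads in shared exon bases that were assigned to neither gene, if any, would not show in these values.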

How the data were processed

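DRG of 8 embryo samples at E18.5 (4 AD1 OE, 4 Control) were sequenced by the authors from stranded poly(A) libraries. Per the labels and the study's methods, reads were aligned to GRCm39 with STAR 2.7.8a and read counts per Ensembl gene were made with featureCounts 2.0.1, and the authors deposited these raw counts for each library without scaling or filtering. The strand setting of the counting is not given in the sources used here, so overlapping genes are uncertain. Groups came from the genotypes in the labels.

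The genotypes were compared with the quasi-likelihood test of edgeR 4.0.16 (R 4.3.3), after filterByExpr and TMM scaling and with no covariate, and p-values were adjusted by Benjamini-Hochberg over 17721 genes. CPM used TMM-scaled library sizes, and TMM factors separated the groups slightly (0.987 to 1.00 in Control, 1.01 in AD1 OE, exact two-sided permutation p = 0.0286, the smallest that 4 against 4 allows). DESeq2 1.42.0, which the study used, and limma 3.58.1 (voom) were alternatives, as were RLE scaling, library size only, 2 filters, sex terms, a replicate block and leaving out each library. The fits were tested on simulated data.

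The members, the partner and marker lists and the tests were chosen with earlier results of these data known. Named genes were the 10 members, Dach1 and Avil, called partner genes, and the most abundant partner gene of each of 5 sublists. Some genes under this rule are not reported here. Gene names, lengths, overlaps and sequences came from GENCODE M21, whose build (GRCm38) precedes the one the reads were counted on (52133 of 55414 IDs had a symbol). The filter codons were found by a motif search in the longest open reading frame of protein-coding transcripts. Reads carried no molecular identifiers, so the floor of 3 counts covers counting error only.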

Additional observations from a re-analysis of the deposited data

Results flagged for a closer look

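In each of 48 groups of 4 values (CPM of the named genes and shares of the channel types, by genotype), the gap between the most distant library and its nearest neighbour was compared with the range of the group. The gap was above Dixon's 95% critical value in 7 groups, where chance gives about 1 in 20, and several of the values come from the same libraries.

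Cacna1h was far from the other libraries of its group in AD1 OE replicate 2, at 228.7 CPM, and in Control replicate 1, at 166.7 CPM. Both were the low value of their group, and without either library the gene remained called. Control replicate 1 was also low for Cacna1c, at 135.4 CPM. Without it the edgeR quasi-likelihood log2 fold change of Cacna1c was 0.17, the lowest value among the fits with a library left out, and with all libraries it was 0.21. Control replicate 2 was high for Cacna1a, at 141 CPM, where the other 3 Control libraries were nearly level. Cacna1f was low in AD1 OE replicate 4, at 0.144 CPM, which is 4 counts.

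Among the shares of the summed level per length, the P/Q type was high in Control replicate 1, at 15.4%, and the R type was high in AD1 OE replicate 1, at 2.08%.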

How the results depend on the processing

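Over 17 alternative fits, the number of pore subunit genes called higher was 1 and called lower 0 in each. With an adjusted p under 0.05 and no limit on the fold change, 2 were higher. Cacna1h was the called gene in all 17, at log2 fold changes of 0.51 to 0.57 and adjusted p from 1.16e-21 (DESeq2) to 3.58e-04 (replicate block). Cacna1c was called in none, at adjusted p of 0.00301 (edgeR with no expression filter) to 0.15 (edgeR with the sex score). With DESeq2 its adjusted p was 0.00302. Of 169 member values, 166 kept their direction and whether the gene was called. The 3 that reversed came from leaving out libraries, where log2 fold changes ran from -0.0172 (without Control replicate 1) to 0.0477 for Cacna1b, from -0.379 to 0.0638 (without AD1 OE replicate 4) for Cacna1f, and from -0.344 (without AD1 OE replicate 3) to 0.696 for Cacna1s, which was at 0.99 with the sex score and 0.90 with a 2-level sex term.

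Partner genes called higher numbered 0 at the settings used, 3 with DESeq2 or no expression filter, 1 with RLE scaling, library size only or at least 1 CPM in 4 libraries, 0 to 1 without a library (1 without AD1 OE replicate 3), and 4 at an adjusted p under 0.05 with no fold limit. Those called lower numbered 2 at the settings used, 3 with DESeq2 or no expression filter (Rimbp2 added), 1 with the sex score, 1 with sex as a 2-level term (added after the data were seen), 1 with the replicate block (Cacng5 lost, adjusted p = 0.0104), 0 to 2 without a library (0 without AD1 OE replicate 2, AD1 OE replicate 4 or Control replicate 4, 1 without AD1 OE replicate 1 or Control replicate 2), and 5 at an adjusted p under 0.05 with no fold limit. The cause was not tested.

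The replicate block rested on numbers that do not pair the libraries: deviations from the group means of same-numbered libraries correlated at -0.0099, -0.05, -0.04 and 0.31, and not every library correlated best with its own number. With the block 348 genes were called in place of 455, with 1 pore subunit gene higher and 0 lower. Over all genes, DESeq2 called 659, no filter 747, the sex score 330, and fits without a library 289 to 420. With library size only the split was 159 higher and 292 lower, beside 139 and 316.

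With the length of the longest transcript in place of all exons, shares in AD1 OE and Control were 14.7% and 14.9% (L type), 16.4% and 17.7% (P/Q type), 35.1% and 38.99% (N type), and 2.56% and 3.12% (R type). Those of the T type moved by less than 1 SD. The level per length moved by more than 1 SD in 13 of 20 cases, and Cacna1d, Cacna1g and Cacna1e then overlapped. Depth limits Cacna1f and Cacna1s, the members with the fewest counts.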
